A study of Rattus norvegicus with 98 samples.

Results

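The raphe and the locus coeruleus (LC) were compared by H3K27ac, a histone acetylation that marks active promoters and enhancers. All 4 Raphe libraries and all 4 LC libraries were taken, which are 8 of the 98 samples of the series and 8 of the 94 that have a peak list. The groups were Sham Raphe, FT Raphe, Sham LC and FT LC, with replicates 1 and 2 in each. FT rats drank fluoxetine at 18 mg/kg for 6 weeks from an age of 2 months, and Sham rats of the same age drank water. All were male Long-Evans rats with no genetic change, and a library came from tissue punches pooled over several animals, so that n counts pools. The study's methods count the ChIP-seq animals per treatment and not per region, so Raphe and LC pools may come from the same animals. According to the study's methods, the Sham and FT libraries of a replicate number were handled side by side.

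The raphe nuclei hold the serotonin neurons that project to most of the forebrain, and the LC is a small nucleus of noradrenaline neurons beside the fourth ventricle. Fluoxetine blocks the transporter that returns serotonin to its neurons. H3K27ac near a gene start marks an active promoter, and away from gene starts it marks enhancers, whose use differs between cell types far more than that of promoters. A micropunch takes neurons, glia and vessels of the nucleus and its surroundings together, so a difference between punches can lie in any of these cells, and fewer cells of a type and less acetylation per cell cannot be told apart. The tissue labels could not be set against marker genes such as Tph2, Slc6a4 or Dbh, since an annotation of the Rn5 build of the files was not used here, and loci are given by position.

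The lists held 43742 to 52383 peaks in Raphe and 34038 to 48055 in LC. Each was cut to the 34038 peaks with the highest maxScore (the highest value of the peak caller's filter within a peak), the length of the shortest of the 8. Reads were not part of the lists, so sequencing depth is unknown. The 2 LC libraries of replicate 2 had the shortest lists and the narrowest peaks in both treatments. At equal list length the median peak width was 2000, 1800, 2000 and 1900 bp in Sham Raphe 1 and 2 and FT Raphe 1 and 2, and 1900, 1500, 1900 and 1600 bp in Sham LC 1 and 2 and FT LC 1 and 2. The regions overlapped, and the log2 ratio of Raphe to LC was 0.16 (exact permutation p = 0.229, 0.229 adjusted over 4 list measures). The number of peaks (log2 ratio 0.21), the covered length (0.27) and the occupied windows (0.15) also leaned to Raphe without passing the test (adjusted exact p = 0.229 for each). The regions did not overlap in the share of full-list peaks at the upper limit of the listed −log10 p. It was 5.52% to 7.74% in Raphe and 0.940% to 4.39% in LC. This difference, and its bearing on the window and width contrasts below, was not tested. Among all 94 lists the library most similar to Sham Raphe replicate 1 was Sham Snt replicate 1, from another region of the series (Jaccard index 0.810). It came ahead of Sham Raphe replicate 2 (0.753). Sham Raphe replicate 2 was nearly as similar to that Snt library (0.745) as to Sham Raphe replicate 1. The main counts are given also without Sham Raphe replicate 1.

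Raphe and LC shared part of their acetylated sequence. Of 101882 windows of 1 kb that peaks covered by at least 50% in any of the 8 libraries, 32683 (32.1%) were occupied in all 8. Similarity between libraries was measured by the Jaccard index, the windows occupied in both divided by those occupied in either. It averaged 0.694 over the 12 pairs of the same region (range 0.607 to 0.764) and 0.607 over the 16 pairs of a Raphe with an LC library (0.481 to 0.728). The difference of 0.0872 was the largest of the 70 placings of the region labels (exact permutation test, one-sided p = 0.0286, the smallest this design allows). These placings treat the 8 libraries as independent, although Raphe and LC pools may share animals. With labels swapped only between libraries of the same treatment and replicate number, the exact permutation p was 0.125, the smallest that 16 placings allow. Without Sham Raphe replicate 1 the difference was 0.0627 (exact p = 0.0571), and without Sham Raphe replicate 2 it was 0.0668 (exact p = 0.0571).

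**Figure D1:**
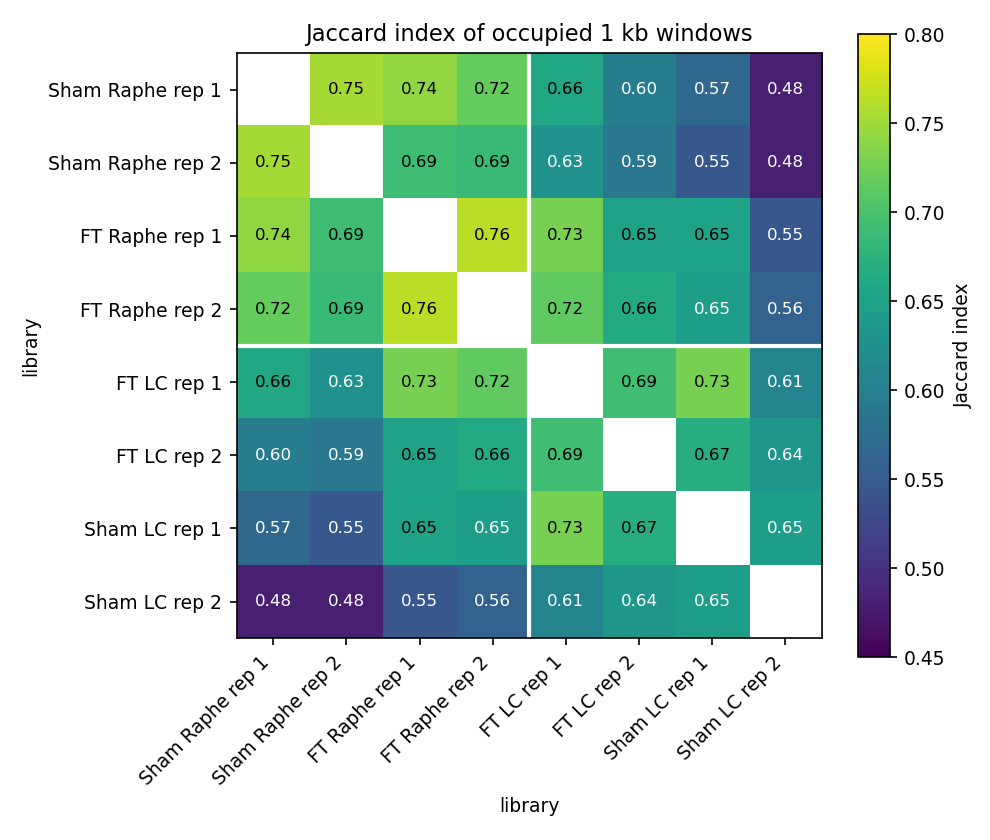
Jaccard index of occupied 1 kb windows for each pair of the 8 libraries, at 34038 peaks per list (colour and printed value; white lines part Raphe from LC, and the diagonal is blank). The lowest values join Sham Raphe with Sham LC, and FT Raphe with FT LC replicate 1 reach 0.728 and 0.715.

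The similarity of the 2 regions was not the same in Sham and in FT. The 4 Sham pairs of Raphe with LC had indices from 0.481 to 0.568 (mean 0.519), and the 4 FT pairs from 0.651 to 0.728 (mean 0.689), with no overlap. Pairs of the same region across treatments averaged 0.684 (0.607 to 0.742), so FT Raphe and FT LC libraries were about as alike as libraries of a single region from different treatments. The index within a region exceeded that between regions by 0.180 in Sham and by 0.0391 in FT. The FT minus Sham difference of the Raphe-LC index was 0.170 (exact permutation of treatment within region, 36 placings, two-sided p = 0.0556, the smallest that design allows). This test was chosen after the values were seen. Sham and FT punches came from different animals, so treatment and any difference between the pools in punching or handling cannot be told apart, here and in each Sham and FT contrast that follows.

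A window separated the regions when all 4 libraries of a region and none of the other occupied it. There were 2013 such windows in Raphe (1.98% of the 101882) and 716 in LC (0.703%). Just outside this threshold, 2860 windows were occupied in all 4 Raphe and 1 LC library, 2747 in 3 Raphe and no LC library, 1061 in all 4 LC and 1 Raphe library, and 1520 in 3 LC and no Raphe library. For comparison, 39 windows were occupied in all 4 FT and no Sham library of the 8, and 24 the reverse. No single window can pass a test at this sample size: Fisher's exact test gave p = 0.0286 for each of the 2729 windows, with an adjusted p of 1. The excess of Raphe windows depended on how the lists were cut. On lists of equal covered length there were 1294 Raphe and 1225 LC windows, and on full lists 2462 and 332. Without Sham Raphe replicate 1 (3 Raphe against 4 LC libraries) there were 2245 and 773. The relaxed rule raised the Raphe count to 3202 without FT Raphe replicate 2 and to 3758 without FT LC replicate 1. It raised the LC count to 1243 and 1138 without FT Raphe replicate 1 or 2 and to 1139 and 1468 without FT LC replicate 1 or 2.

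Within each treatment the rule asks for both libraries of a region and neither of the other, and no test was made of these counts, since an exact permutation test of 2 against 2 libraries cannot go below a two-sided p of 0.333. In Sham, 10828 windows (11.5% of the 94010 occupied in any of the 4) were in Raphe alone and 8366 (8.90%) in LC alone. In FT, 4407 (5.14% of 85792) were in Raphe alone and 1812 (2.11%) in LC alone. Which region had more windows depended on how the lists were cut and on single libraries. At equal covered length there were 8337 Raphe and 8706 LC windows in Sham and 2616 and 2553 in FT. Without Sham LC replicate 2 the Sham counts were 12044 and 16079, and without FT LC replicate 2 the FT counts were 6072 and 6444. In the main counts Sham thus had 3.09 times as many separating windows as FT. This ratio was above 1 on full lists (2.60), at 10000 peaks (3.61) and at equal covered length (3.30). Leaving out a library relaxes the rule in its own treatment only. The ratio can thus only rise without a Sham library (4.24 to 5.12) and only fall without an FT library (1.16 to 1.59). It was lowest without FT LC replicate 1.

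Of the Sham Raphe-alone windows, 2013 (18.6%) were also Raphe-alone in FT, and of the Sham LC-alone windows, 716 (8.56%) were also LC-alone in FT. From the other side, 45.7% of the FT Raphe-alone and 39.5% of the FT LC-alone windows were so in Sham. Of the 8366 windows of Sham LC alone, 28.8% were occupied in all 4 FT libraries and 18.6% in none, and both FT Raphe libraries occupied 35.7%. Of the 10828 windows of Sham Raphe alone, 13.2% were occupied in all 4 FT libraries and 14.2% in none, and both FT LC libraries occupied 16.1%. A reversal was rare: 77 windows went from Raphe alone in Sham to LC alone in FT and 84 the other way. The first 5 of these by position are on chromosome 1. Those starting at 45197001, 102229001 and 103187001 were in LC alone in Sham and Raphe alone in FT, and those starting at 90745001 and 93479001 were the reverse.

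**Figure D2:**
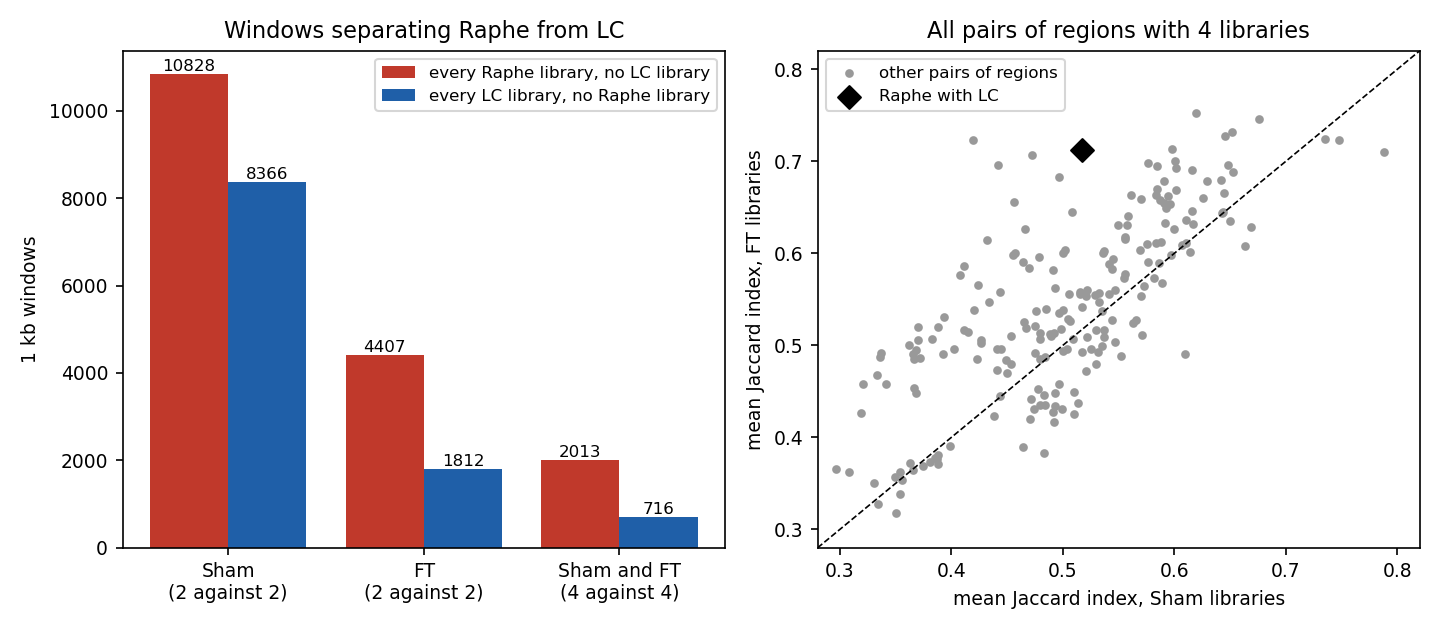
Left, number of 1 kb windows occupied in every library of a region and none of the other, within Sham, within FT and over all 8 libraries (bars, counts printed). Right, mean Jaccard index in FT (y) against Sham (x) for the 210 pairs of the 21 regions with 4 libraries, at 19378 peaks per list, with Raphe and LC as a diamond far above the dashed line of equality.

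Among the 210 pairs of regions with 4 libraries, compared at 19378 peaks per list, Raphe and LC were 92nd in Jaccard index among Sham libraries (0.517) and 9th among FT libraries (0.712). The FT minus Sham difference of 0.195 was the 5th highest (median of all pairs 0.0341). The ratio of Sham to FT separating windows was 3.55, the highest of the 210 (median 0.728). These places are a description, since pairs that share a region share its libraries.

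Most separating windows did not adjoin another of the same direction. The 2013 Raphe windows formed 1759 loci, 85.7% of them a single window, and the 716 LC windows formed 637 loci, 87.8% a single window. No locus was longer than 3 kb. The surroundings differed between the directions at equal list length, where Raphe lists covered 63.0 to 69.2 Mb and LC lists 52.1 to 66.3 Mb. The shares that follow were not computed over all windows. They were also not computed at equal covered length, where the separating windows numbered 1294 in Raphe and 1225 in LC. A peak of an LC list touched 45.9% of the Raphe-alone windows, whereas a peak of a Raphe list touched 16.5% of the LC-alone windows. The nearest peak of the other region was farther than 10 kb from 25.7% of the Raphe-alone and 49.3% of the LC-alone windows, with median distances of 2199 and 9847 bp. Both sets came from the lower part of the lists: the best peak at a window had a median rank of 23186 of 34038 in Raphe and 22811 in LC. The full lists of the other region left 59.1% of the Raphe-alone and 28.2% of the LC-alone windows unoccupied. The rest were occupied by lower-ranked peaks in at least 1 full list of the other region. These 2 shares do not compare like with like, since the cut had removed unequal parts of the lists. It had kept at most 77.8% of a Raphe list. In LC it had kept 73.6% of Sham replicate 1, 70.8% of FT replicate 1, 89.8% of FT replicate 2 and all of Sham replicate 2.

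They were spread over the genome. By chromosome, Raphe-alone windows made up 1.34% (X) to 2.46% (17) of the occupied windows and LC-alone windows ran from 0.343% (20) to 33 of 3291 windows (18). The densest 1 Mb bin for Raphe was chr4:64000001-65000000, with 9 of 108 occupied windows, and the next were chr6:119000001-120000000 with 8 of 93 and chr13:54000001-55000000 with 8 of 166. For LC they were chr12:25000001-26000000 with 8 of 108, where another 4 windows were Raphe-alone, chr4:9000001-10000000 with 7 of 61 and chr1:274000001-275000000 with 6 of 91. The median bin that held any had 2 Raphe-alone or 1 LC-alone window.

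The longest Raphe-alone loci are given with their ranks, where 1 is the best-scoring peak of a list. The longest is chr14:82087001-82090000, where the overlapping peak ranked 22446 and 22743 in Sham Raphe and 26687 and 28769 in FT Raphe. No LC list cut to 34038 peaks had a peak there, and 3 of the 4 full LC lists did. The other locus of 3 kb is chr19:39572001-39575000, ranked 28664 and 21707 in Sham Raphe and 31884 and 23745 in FT Raphe. It too had no peak in the cut LC lists, and 2 of the 4 full LC lists had one. Both were thus faint peaks, present in all 4 cut Raphe lists. The strongest locus of 2 kb, chr9:82207001-82209000, was of another kind. Its peak ranked 1117 and 1087 in Sham Raphe and 431 and 535 in FT Raphe, while LC peaks that only touched the locus ranked 380 and 220 in Sham and 315 and 172 in FT. The widest peak at that locus measured 5300 and 5300 bp in Sham Raphe, 2800 and 4100 bp in FT Raphe, 2800 and 2600 bp in Sham LC and 2700 and 2400 bp in FT LC. The loci chr7:139464001-139466000, chr3:166226001-166228000 and chr8:103107001-103109000 were likewise touched by LC peaks, and chr20:24179001-24181000 and chr10:30972001-30974000 were touched by none in the cut lists, although 2 full LC lists had a peak at the former. All 4 Snt libraries occupied each of these 8 loci, and no PAG library did.

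The longest LC-alone locus is chr1:274415001-274418000, with ranks of 16569 and 18972 in Sham LC and 28529 and 17164 in FT LC. No cut Raphe list had a peak there, and 3 of the 4 full Raphe lists did. At chr15:29705001-29707000 the ranks were 4314 and 3471 in Sham LC against 16932 and 16449 in FT LC. At chr19:57305001-57307000 they were 9608 and 7991 in Sham and 24250 and 25413 in FT. In both loci the Sham peaks ranked far above the FT peaks. Among the cut lists, Raphe peaks touched only chr14:84774001-84776000, with ranks of 33103 in Sham Raphe replicate 1 and 23292 in FT Raphe replicate 2. The other 4 are chr17:29028001-29030000, chr11:66625001-66627000, chr14:114082001-114084000 and chr14:76221001-76223000. Each of the 8 loci had a peak in 1 to 3 of the full Raphe lists. All 4 PAG libraries occupied each of the 8 LC loci and no Snt library did, and the loci on chromosome 14 that start at 114082001 and 76221001 were occupied in no region but LC and PAG.

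That pattern held for the whole sets. The 86 lists of the other 23 regions were cut to the same number of peaks, and 20 shorter lists were used whole. Libraries of Snt occupied 93.4% ± 4.13 (SD, n = 4) of the Raphe-alone windows and 2.93% ± 0.846 of the LC-alone windows, beside 63.3% of all windows of the 8 lists. Libraries of PAG occupied 4.16% ± 1.51 of the Raphe-alone and 86.2% ± 5.89 of the LC-alone windows (n = 4), beside 51.2% of all windows. Without Sham Raphe replicate 1, the library most like Snt, the Raphe-alone windows were still occupied to 90.1% ± 4.56 in Snt and to 5.13% ± 1.88 in PAG, and the LC-alone windows to 6.05% ± 0.735 and 82.9% ± 6.14 (n = 4 each). The windows that separated the regions within Sham had the same profile, with 87.0% of the 10828 Raphe windows occupied in Snt and 86.2% of the 8366 LC windows in PAG. Within FT the contrast was smaller: 77.1% of the 4407 Raphe windows were occupied in Snt and 16.0% in PAG, and 21.1% of the 1812 LC windows in Snt and 56.9% in PAG. VTA (73.1% ± 10.5) and LH (68.8% ± 23.2) followed Snt in occupying Raphe-alone windows. After PAG, the region with the highest share of LC-alone windows was PVN (21.9%, n = 2). Every other region was thus below its share of all windows for the LC set. A Raphe-alone window was occupied in a median of 11 of the 23 other regions and an LC-alone window in a median of 2, beside a median of 16 for all 101882 windows. A single Raphe-alone window and no LC-alone window was occupied in no other region, beside 2.18% of all windows.

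**Figure D3:**
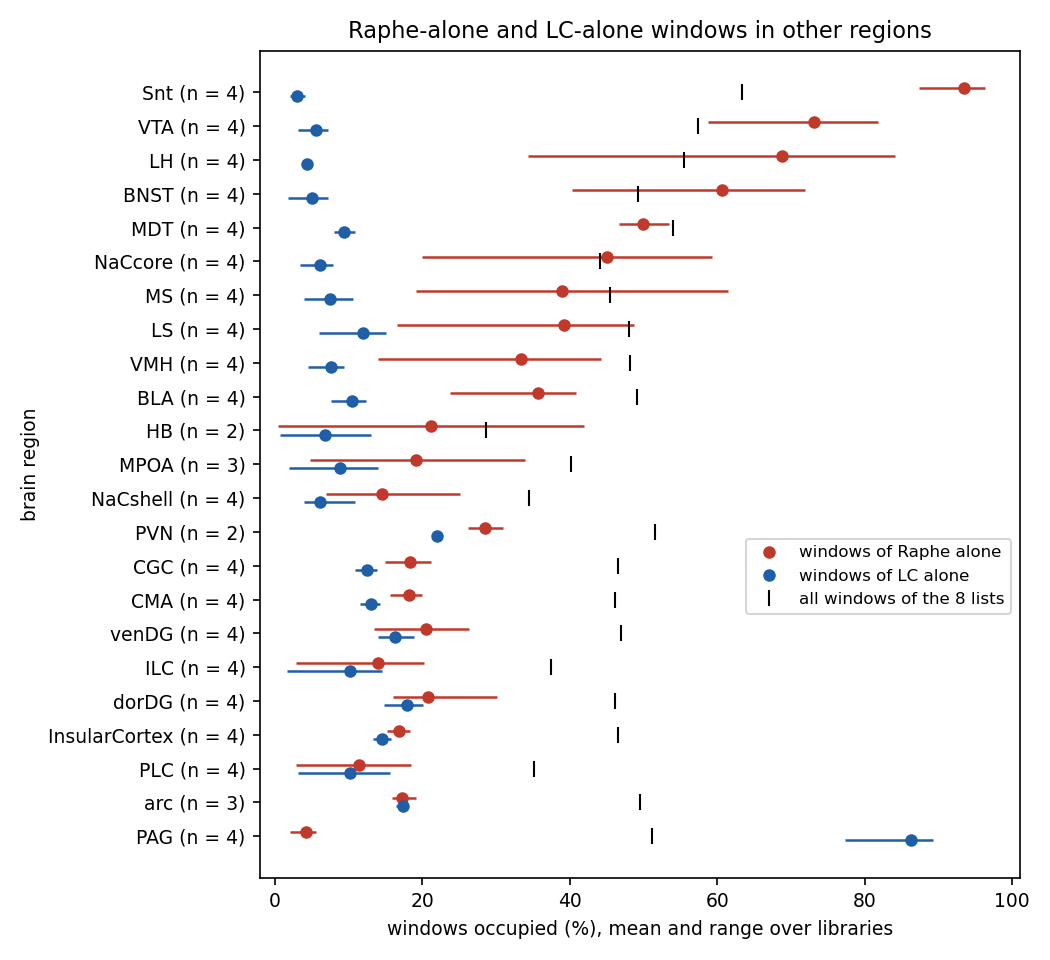
Share of the 2013 Raphe-alone windows (red) and the 716 LC-alone windows (blue) occupied in libraries of each other region, as mean (dot) and range (line) over its n libraries, with the mean share of all 101882 windows as a black tick. Snt is at the top with 93.4% and 2.93%, and PAG at the bottom with 4.16% and 86.2%.

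The 8 libraries were then placed on windows chosen from the Snt and PAG lists. Snt and PAG were picked for the pattern above, so the shares are a description with no test. At 30192 peaks per list, the length of the shortest of the 20 lists of Raphe, LC, Snt, PAG and VTA, 15781 windows were occupied in all 4 Snt and no PAG library and 12099 in all 4 PAG and no Snt library. The Snt-alone windows were occupied to 93.6% and 85.6% in Sham Raphe, 81.1% and 75.2% in FT Raphe, 59.8% and 45.2% in FT LC and 39.4% and 22.7% in Sham LC. The 4 Raphe libraries were all above the 4 LC libraries (83.9% ± 7.74 against 41.8% ± 15.3, SD, n = 4). The PAG-alone windows were occupied to 4.88% and 5.15% in Sham Raphe, 39.0% and 37.0% in FT Raphe, 54.3% and 46.2% in FT LC and 77.8% and 61.2% in Sham LC. Again no Raphe value reached an LC value (21.5% ± 19.1 against 59.9% ± 13.4).

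On both measures the FT libraries of each region lay nearer to the other region than its Sham libraries did. Raphe exceeded LC at Snt-alone windows by 58.5 percentage points in Sham and by 25.7 in FT. At PAG-alone windows Raphe was lower by 64.5 points in Sham (5.01% against 69.5%) and by 12.2 in FT (38.0% against 50.2%). The order of the 4 groups was the same for both sets of windows, Sham Raphe, FT Raphe, FT LC and Sham LC, and neighbouring groups did not overlap. These steps were not tested.

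**Figure D4:**
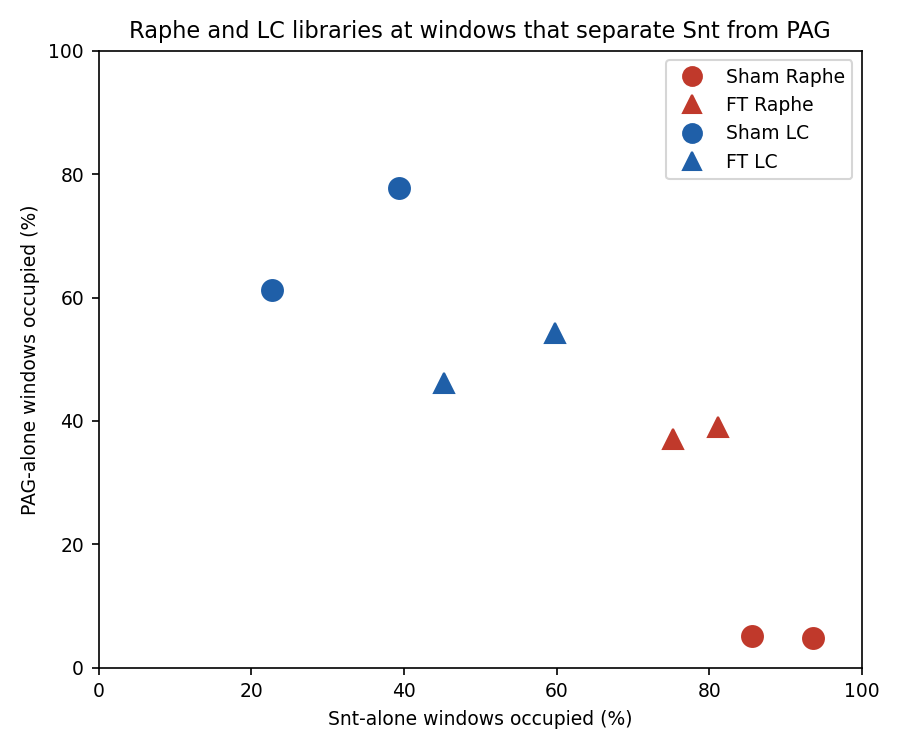
Each of the 8 libraries by the share it occupied of the windows that hold Snt but no PAG peaks (x) and PAG but no Snt peaks (y), at 30192 peaks per list. Sham Raphe lies at the lower right, near 5% of PAG-alone windows, Sham LC at the upper left, and the FT libraries of both regions between them.

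The mean Jaccard index with Snt libraries was 0.796 and 0.743 for Sham Raphe, 0.708 and 0.688 for FT Raphe, 0.623 and 0.575 for FT LC and 0.532 and 0.463 for Sham LC. With PAG it was 0.395 and 0.386 for Sham Raphe, 0.487 and 0.485 for FT Raphe, 0.539 and 0.526 for FT LC and 0.616 and 0.566 for Sham LC. With VTA it ran from 0.673 to 0.730 in Raphe and from 0.484 to 0.625 in LC. Between regions at this list length, Raphe was separated from Snt by 524 windows (0.598% of those occupied) and from VTA by 547 (0.615%), fewer than from LC (2786, 3.00%) or PAG (16831, 16.3%). LC was separated from PAG by 4516 windows (4.81%), from VTA by 5939 (6.27%) and from Snt by 9211 (9.58%). By treatment, Raphe with Snt had 2662 separating windows in Sham and 9105 in FT, and LC with PAG 7942 and 20600, whereas Raphe with LC had 18553 and 5804. The 8 libraries of these pairs occupied 87609, 93983 and 92785 windows. At this list length the windows occupied within each treatment were not counted, so these counts have no share beside them.

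Elements present in both regions were compared by rank and width. Stretches covered by peaks of at least 2 of the 8 lists gave 42698 elements, and 20829 of these (48.8%) had a peak in all 8 lists. Ranks were turned into normal scores, on which a difference of 1 is 1 standard deviation of the list, and fitted with limma with region and treatment as terms. The correlation of the scores over these elements averaged 0.918 between the libraries of a region in Sham and 0.924 in FT. It averaged 0.874 between a region's Sham and FT libraries, 0.603 between Raphe and LC in Sham (0.573 to 0.637) and 0.880 between Raphe and LC in FT (0.862 to 0.901). These are correlations across elements of the same libraries and have no test.

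Many shared elements had a different rank. All 4 Raphe ranks were better than all 4 LC ranks for 3998 elements (19.2%), and the reverse held for 3000 (14.4%). The limma test called 4364 elements ranked higher in Raphe (21.0%) and 2997 ranked higher in LC (14.4%; Benjamini-Hochberg adjusted p below 0.05). Without Sham Raphe replicate 1 they were 2384 and 1762, and without Sham Raphe replicate 2 they were 2496 and 1864. The LC count was also lower without Sham LC replicate 1 (1629) or Sham LC replicate 2 (1972), and on full lists the counts were 4868 and 1648.

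The rank differences depended on treatment. Within Sham, limma called 5764 elements ranked higher in Raphe (27.7%) and 4461 ranked higher in LC (21.4%). Within FT it called 126 (0.605%) and 139 (0.667%). The median absolute difference of the score was 0.422 in Sham and 0.190 in FT, and 77.7% of the elements differed less in FT than in Sham. The direction was the same in both treatments for 72.8% of all elements, and for all 245 that were called in both. By overlap alone, 932 of the 20829 shared elements had non-overlapping regions in opposite directions in Sham and FT. The interaction of region and treatment, which tests the change itself, was called for 3510 elements (16.9%), and in 3461 of them (98.6%) the difference was smaller in FT. In 579 of the 3510 its direction turned between Sham and FT. The interaction count was 1907 without Sham Raphe replicate 2, 1443 and 1559 without FT Raphe replicate 1 or 2, and 2140 without FT LC replicate 2. The number called within FT ranged from 0 to 1092 when single libraries were left out, and that within Sham from 8349 to 10322.

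The 5 elements with the lowest p in each direction, among those whose regions did not overlap, show how far ranks moved. Their low p and lack of overlap follow from this choice. The clearest Raphe element by level, chr4:235082707-235084906, ranked 396 and 266 in Sham Raphe, 639 and 546 in FT Raphe, 1948 and 2278 in Sham LC and 1829 and 2588 in FT LC. It was thus among the best peaks of every list (score difference 0.698, SE 0.0903, limma adjusted p = 0.00449). The first by p, chr15:31577403-31579602, ranked 7342 and 7538 in Sham Raphe and 12130 and 9777 in FT Raphe, against 25005 and 25710 in Sham LC and 23136 and 25925 in FT LC. Its peak was in the upper part of the Raphe lists and in the lower part of the LC lists (difference 1.25, SE 0.153, limma adjusted p = 0.00449). The element chrX:5529834-5532233 kept nearly the same gap in both treatments, with ranks of 2957 to 3589 in Raphe and 8679 to 10867 in LC. The other Raphe elements are chr18:24863805-24867063 (845 to 1236 against 2983 to 4669) and chr11:71856602-71859501 (582 to 875 against 2281 to 4601).

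In LC the best-ranked of the 5 was chr15:32125802-32128832, with ranks of 200 and 217 in Sham LC and 381 and 277 in FT LC against 1868 and 2208 in Sham Raphe and 2299 and 1164 in FT Raphe. It lies within 1 Mb of the first Raphe element and ranked the other way. The element with the lowest p, chr19:51778302-51780944, ranked 545 and 575 in Sham LC, 1053 and 899 in FT LC, 6353 and 5555 in Sham Raphe and 3520 and 4593 in FT Raphe. Its score difference was -1.20 in Sham and -0.719 in FT, and it was the only one of the 10 whose interaction passed (limma adjusted p = 0.0342). The element chr20:33732657-33735005 moved the same way, from 3330 and 3536 against 18266 and 18189 in Sham to 5594 and 4906 against 15760 and 13906 in FT. The remaining elements are chr1:164164024-164166723 (1173 to 1687 in LC against 4808 to 6219) and chr12:43392402-43395406 (1554 to 2569 against 6080 to 8550). Their score differences were -0.809 and -0.897 in Sham and -0.650 and -0.723 in FT. Their interactions did not pass (limma adjusted p = 0.480 and 0.490).

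**Figure D5:**
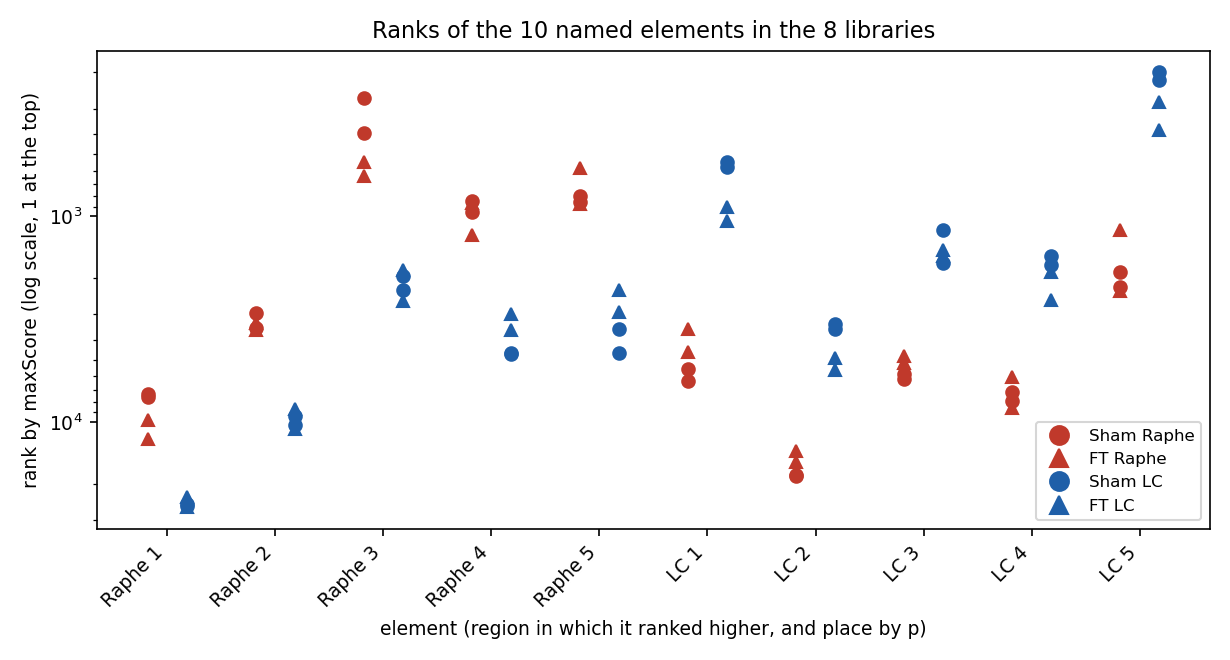
Rank by maxScore (log scale, 1 at the top) of the 10 named elements in the 4 Raphe (red) and 4 LC (blue) libraries, circles for Sham and triangles for FT. The elements were chosen so that the colours do not overlap. In LC 1 and LC 2 the triangles of the regions lie closer together than the circles.

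Widths differed less clearly than ranks. All 4 Raphe peaks were wider than all 4 LC peaks in 2962 shared elements (14.2%) and the reverse in 59 (0.283%). Over the shared elements of the cut lists the median log2 difference was 0.11 toward Raphe. For the median peak width of a library the log2 ratio was 0.16 on cut lists (exact permutation p = 0.229). On full lists it was 0.045 (exact permutation p = 0.714). After centring each library on its own median width, which takes out any general difference in width by construction, the counts were 1658 and 1270. Without FT LC replicate 1 the uncentred counts were 5343 wider in Raphe and 74 wider in LC, and the LC count rose to 254, 102, 128 and 223 without FT Raphe replicate 1, FT Raphe replicate 2, Sham LC replicate 2 and FT LC replicate 2. The limma test called 9 elements wider in Raphe (0.0432%) and 1 wider in LC (0.00480%), where 5005 had an unadjusted p below 0.05. Centred widths gave 11 and 3 calls. Leaving out single libraries gave 5 to 47 and 0 to 3, with 47 and 3 without FT LC replicate 1. The interaction with treatment was called for 5 elements by width (0.0240%), and for 0 to 545 without single libraries. The 545 arose without Sham LC replicate 1, which left Sham LC replicate 2, the library with the narrowest peaks, alone in its group.

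The elements named by width were likewise chosen for low p among those whose regions did not overlap. The wider Raphe peaks of those named for Raphe follow from this choice. At chr8:62194155-62197705 the widest peak measured 3100 and 3200 bp in Sham Raphe, 3500 and 3300 bp in FT Raphe, 1700 and 1600 bp in Sham LC and 2000 and 1900 bp in FT LC. The Raphe peak was wider by 0.87 on the log2 scale (SE 0.0503, limma adjusted p = 0.000871), in Sham (0.93) as in FT (0.80). At chr5:157025965-157030856 the widths were 4500, 4700, 4600 and 4700 bp in Raphe and 2700, 2500, 2500 and 2300 bp in LC. Its peak ranked 402 to 1734 in Raphe and 411 to 614 in LC, so the regions differed in extent while their ranks overlapped. Those at chr3:160382375-160387045 (4200 to 4600 bp against 2200 to 2500 bp), chr1:219161647-219165806 (4000 to 4100 bp against 2200 to 2600 bp) and chr16:80918526-80922925 (4000 to 4400 bp against 2600 to 2800 bp) were alike. When all bases under peaks of an element were counted in place of the widest peak, chr3:160382375-160387045 (limma adjusted p = 0.155), chr5:157025965-157030856 (0.125) and chr1:219161647-219165806 (0.139) were no longer called.

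In LC only chr5:53878294-53882493 was called. Its widest peak measured 3200 and 4100 bp in Sham LC and 4100 and 4200 bp in FT LC, against 2300 and 2300 bp in Sham Raphe and 2500 and 2600 bp in FT Raphe. The log2 difference was -0.68 (SE 0.0742, limma adjusted p = 0.0252). The others did not pass. At chr4:191156375-191161206 LC peaks measured 3700 to 4700 bp and Raphe peaks 2400 to 2800 bp (limma adjusted p = 0.0533), although the element ranked better in Raphe (7308 to 9988 against 11453 to 23378). At chr10:109016614-109021119 the widths were 3100 to 4500 bp in LC and 2200 to 2800 bp in Raphe (limma adjusted p = 0.0570). The last 2, chr19:36533502-36537420 and chr5:160021594-160025264, had limma adjusted p of 0.124 and 0.143.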

How the data were processed

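H3K27ac ChIP-seq libraries were aligned by the authors to the Rn5 rat genome (BWA, per the submitters' processing notes; version not given in the sources used here), and peaks were called with DFilter on each library. The deposited lists give maxScore and a normalised tag count as scores, a −log10 p-value from 4 to 200 and a false discovery rate as a percent. Both scores depend on the library and were used only as ranks. Depth is unknown, so no counting interval was computed. Starts were read as counting from 0, coordinates are printed counting from 1, and 1019 peaks on unplaced scaffolds in 2 lists of other regions were left out.

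The comparison, its members, the naming rule and the measures were chosen with earlier results of these data known. The study's read-count test could not be run on peak lists. Elements were joined stretches covered by at least 2 of the 8 lists; the widest and the best-ranked overlapping peak gave width and rank. limma 3.58.1 (eBayes with trend, R 4.3.3) was fitted to all 20829 shared elements with Benjamini-Hochberg adjustment at 0.05. It was also run on simulated data with known region shifts, independent libraries and no interaction with treatment. That run therefore does not cover a region difference that depends on treatment, or libraries that share animals. Exact permutation tests used Python 3.11.15. Named are the 8 longest loci, the 5 elements of lowest p by rank and by width among those whose regions did not overlap, the 3 densest 1 Mb bins per direction, and the first 5 windows of opposite direction. Gene lists were not used without an annotation of Rn5. The p-values rest on the spread between libraries, each from a pool. In the limma test of region, fitted without the interaction, that spread also holds any change of the region difference with treatment. Permutations of the region labels mix Sham and FT libraries.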

Additional observations from a re-analysis of the deposited data

Results flagged for a closer look

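The region difference in rank depended on treatment for 3510 shared elements and that in width for 5 (limma interaction, Benjamini-Hochberg adjusted p below 0.05). Of the named elements, the interaction passed for chr19:51778302-51780944, ranked higher in LC (limma adjusted p = 0.0342). Windows in opposite direction, 77 in Raphe alone within Sham and LC alone within FT and 84 the reverse, were flagged because every library of a treatment went the other way; that difference was not tested.

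Of 52 groups of 4 values examined, 4 had a library far from the other 3 (Dixon's criterion at 95%), and chance flags about 1 group in 20. At chr1:219161647-219165806 the peak of FT Raphe replicate 1 measured 4000 bp and the other Raphe peaks 4100 bp, a step of the 100 bp grid of widths. At chr5:53878294-53882493 Sham LC replicate 1 had 3200 bp beside 4100 to 4200 bp in the other LC libraries. At chr10:109016614-109021119 Sham LC replicate 2 had 3100 bp beside 4400 to 4500 bp. At chr19:36533502-36537420 Sham LC replicate 1 had 3000 bp beside 2400 to 2500 bp.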

How the results depend on the processing

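The excess of Raphe over LC windows turned within Sham at equal covered length (8337 and 8706) and without Sham LC replicate 2 (12044 and 16079), and within FT without FT LC replicate 2 (6072 and 6444). Windows of Raphe alone and LC alone numbered 1152 (Raphe; LC within 1.5 times) at 10000 peaks, 802 and 411 at 5000 peaks, 1294 and 1225 at equal covered length, 184 and 10 with 5 kb windows, and 1105 and 191 with whole windows covered. The centre window gave 741 for Raphe. LC alone had 332 windows on full lists, 149 on full lists with a −log10 p of at least 10 and 1317 with any overlap. Without single libraries (3 against 4) they ranged from 2117 to 3758 and from 764 to 1468. Within Sham, 10000 peaks gave 5659 and 4974; within FT, 10000 peaks gave 1717 in Raphe, equal covered length 2616 and 2553, and full lists 1172 in LC. Leaving out libraries gave 12044 to 19902 and 9282 to 16079 in Sham, and 6072 to 11477 and 2927 to 6444 in FT. The ratios of Sham to FT were chosen after seeing the data, as were these within-treatment alternatives.

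Raphe and LC pools of a treatment may come from the same animals. They share replicate numbers, but the sources used here do not say that a number marks the same animals in both regions. Deviations of same-numbered libraries from the region and treatment means correlated at 0.0299 in Sham and 0.0200 in FT over elements. The replicate block by treatment and number is thus a check only. Within replicate 1 alone and replicate 2 alone, 1 Raphe against 1 LC library gave 18918 and 25667 Raphe and 17835 and 14616 LC windows in Sham, and 12343 and 16636 Raphe and 8929 and 7905 LC windows in FT. With the block the Jaccard difference was 0.0872 (exact p = 0.125, the smallest possible), the elements ranked higher in Raphe were 3184 and in LC 1911, and the interaction by width had 3 calls. The 10 elements named by rank were called with it too. By width, chr5:53878294-53882493 had a limma adjusted p of 0.0887 and chr4:191156375-191161206 of 0.0488 with the block. The Jaccard difference ranged from 0.0627 to 0.118 without single libraries.

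By limma, 10000 peaks gave 1339 and 1134 elements ranked higher in Raphe and in LC, and full lists 1648 in LC; without single libraries 2384 to 4416 and 1629 to 2948. By non-overlap, 10000 peaks gave 1154 and 1099, full lists 1482 in LC, and elements in at least 1 list 6956 and 5426. The interaction by rank was called for 1060 elements on full lists, 1068 at 10000 peaks and 1443 to 4472 without single libraries; by width for 3 on full lists and 0 to 545. For width, no treatment term gave 14 and 2 calls, all bases under peaks 5 and 3, centred widths 3 in LC and single-library omissions 5 to 47 and 0 to 3. Non-overlapping widths were 616 and 8 at 10000 peaks, 115 in LC on full lists, 1658 and 1270 when centred, and 3058 to 5343 and 60 to 254 without single libraries. Of the 16 named loci, 13 kept all windows at equal covered length, 5 on full lists and 2 at 10000 peaks, and all 16 without single libraries. Leaving out a library relaxes the rule, and shorter lists hold fewer windows, by construction; other causes were not tested. Depth is unknown, so weak peaks absent from a shorter list cannot be told from absent acetylation.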
